A study of Mus musculus with 6 samples.

Results

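The transcripts described here are 47 mouse genes of DNA damage signalling and repair, chosen by gene symbol from a fixed list and read from a table of 53656 symbols, in which all 47 were present. Hand-dissected oocytes were sequenced in 6 libraries, 3 from wild-type (WT) and 3 from Khdc3-null (KO) females, and the comparison asked how loss of Khdc3 alters the oocyte transcriptome. The labels give the tissue and the genotype only, so the allele, strain, age, oocyte stage and the number of animals behind each library are not stated. Nor is it stated whether replicates came from separate animals, and the spread behind each p-value may therefore be technical. The members were described in 5 classes: 15 sensors and checkpoint genes, 11 of homologous recombination, 5 of the Fanconi pathway, 5 of end joining and 11 of mismatch and excision repair.

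DNA breaks are detected by protein complexes that recruit the kinases ATM and ATR, which signal through the checkpoint kinases CHK1 and CHK2 and through p53. Breaks are then joined end to end or copied from a sister or homologous chromatid by recombination, while crosslinks, mispaired bases and damaged bases are removed by the Fanconi, mismatch and excision pathways. Oocytes rest for long periods in meiotic prophase, and this machinery is known to decide whether a damaged oocyte survives or is removed. The protein encoded by Khdc3, also named Filia, is a component of the subcortical maternal complex and has been linked to the DNA damage response in mouse embryonic stem cells.

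The libraries held 34640170 to 43343444 reads, recovered from the deposited RPKM values (reads per kilobase of exon, scaled to the size of the library) and annotated exon lengths. Khdc3 stood at 423, 425 and 502 RPKM in WT replicates 1, 2 and 3 and at 0.224, 0.217 and 0.113 RPKM in KO replicates 1, 2 and 3, so the targeted gene followed the genotype label in all 6 libraries. KO replicate 1 stood apart from KO replicates 2 and 3 on the second principal component (18.1% of the variance). All 12 oocyte markers were expressed, and their summed level was 13000 to 14200 RPKM in WT and 12800 to 13300 RPKM in KO. Only 2 of 12 tested oocyte markers were higher in KO and none was called. The lowest single value of any of them was 0.889 RPKM. The 15 markers of granulosa and cumulus cells summed to 143 to 274 RPKM in WT and 317 to 438 RPKM in KO, with 13 of 13 tested genes higher and 1 called, and none was under 0.1 RPKM in all libraries. The 10 stroma and smooth muscle markers summed to 23.7 to 32.3 and 31.7 to 42.4 RPKM, with 7 of 8 tested genes higher and 1 called, and none was under 0.1 RPKM in all libraries. The 4 leukocyte markers summed to 2.56 to 4.99 RPKM in WT and 5.97 to 7.43 RPKM in KO, with 2 of 2 tested genes higher and Ptprc under 0.1 RPKM in every library. The 6 theca and luteal markers summed to 23.8 to 132 and 102 to 125 RPKM (3 of 4 tested genes higher), the 4 endothelial markers to 17.6 to 19.0 and 14.3 to 18.3 RPKM (0 of 2 higher), and the 3 erythroid markers to 14.7 to 65.0 and 8.49 to 65.8 RPKM (0 of 2 higher), with none of these called. In such bulk samples, fewer cells of a type and less RNA per cell cannot be told apart.

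Rad51d, a gene of homologous recombination, was the 1 member that passed the test, and its transcript was 1.91 times as abundant in KO as in WT oocytes by mean RPKM. Of the 47 members, 45 reached an RPKM of 1 in at least 3 libraries and were tested, each on log2(RPKM + 1) in a limma fit over 12272 genes. The other 44 tested members, among them all 13 tested sensor and checkpoint genes, did not pass the adjusted p of 0.05. The count of 1 called member, or 0 lower and 1 higher, stood beside 2.74% of all tested genes called in either direction and 1.6% called higher. For 41 of the 45 members the 95% interval of the change lay within 1.5-fold either way (0.58 on the log2 scale), and 43 lay within 2-fold. Among all tested genes 10067 of 12272 had an interval within 1.5-fold. The 4 members whose interval reached further than 1.5-fold were Rad51d, Fancc, Lig4 and Ung, and of these Rad51d and Fancc also passed 2-fold. The pseudocount of 1 compresses changes of low genes, and with a pseudocount of 0.1 the interval lay within 1.5-fold for 36 members.

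**Figure D1:**
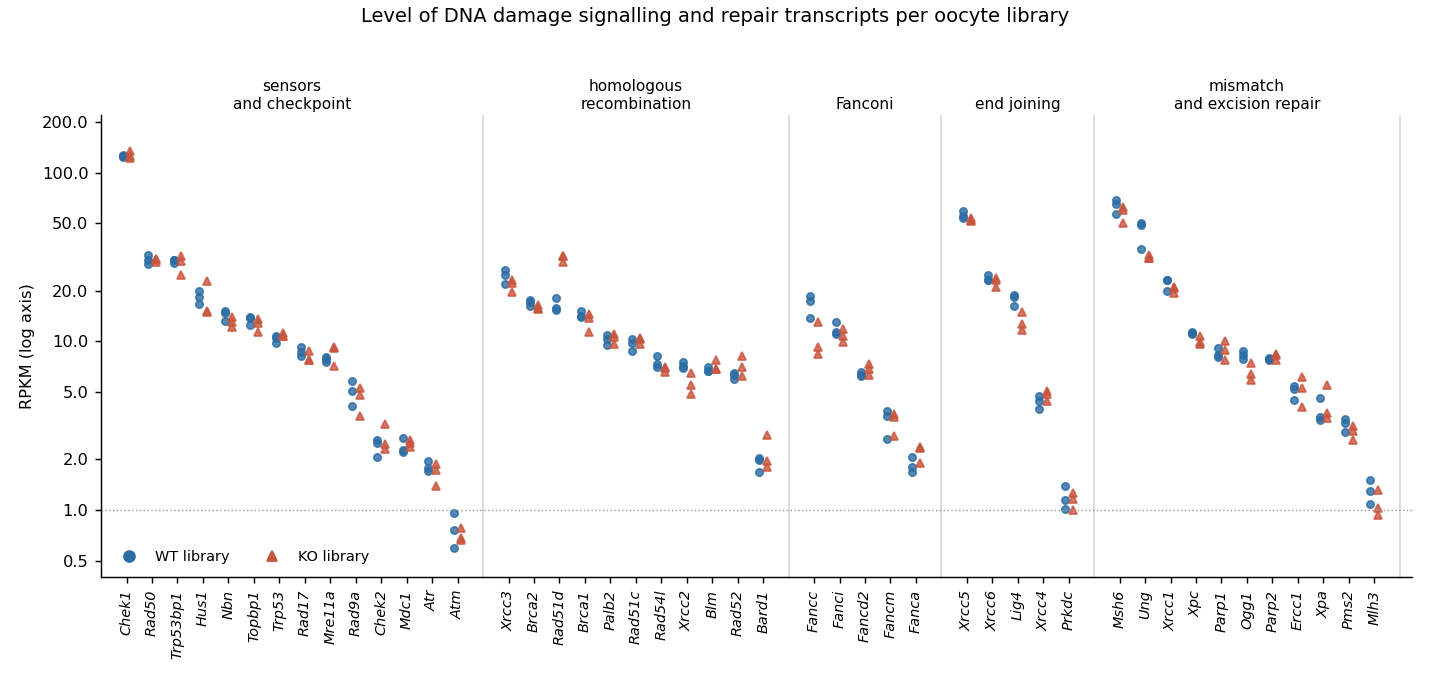
RPKM of 46 members (log axis) in each of 3 WT libraries (circles) and 3 KO libraries (triangles), by class and in order of the WT mean. Atrip, at 0.0232 RPKM or less in every library, is not drawn, and the dotted line marks 1 RPKM; the levels run from Chek1 near 125 RPKM down to Atm under 1 RPKM, and Rad51d has its KO points clearly above its WT points.

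The levels of the members spanned from under 1 to over 100 RPKM. Chek1, which encodes the kinase CHK1 downstream of ATR, was the most abundant, with a WT mean of 125 RPKM that was exceeded by 2.98% of tested genes. Msh6, which acts in mismatch recognition, followed at 63.6 ± 6.19 RPKM, Xrcc5, a subunit of the Ku heterodimer that caps broken ends, at 56.2 ± 2.76, and Ung, the uracil-DNA glycosylase, at 44.8 ± 8.38 RPKM (SD, n = 3). The median of the 45 tested members was 8.72 RPKM in WT, against 6.91 RPKM for all tested genes. At the other end of the scale were several large kinases and partners of abundant proteins. Prkdc, the catalytic subunit of the DNA-dependent protein kinase, stood at 1.18 ± 0.192 RPKM, Mlh3, a MutL homolog, at 1.30 ± 0.214, Atr at 1.81 ± 0.132, Fanca at 1.85 ± 0.189 and Bard1 at 1.89 ± 0.188 RPKM in WT. Neighbours in this low end of the order, such as Atr, Fanca and Bard1, did not differ beyond their spread. The order also depends on the gene model, because RPKM is divided by exon length. Atr, with 23629 annotated exon bases, had 1288 to 1925 reads per library, while Chek2, higher by RPKM, had 249 to 392.

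Partners in the same complex or step were often present at unequal levels. RPKM is scaled by length, so the following ratios compare levels per kilobase of 2 genes in the same library. In 13 of 18 pairs the ratios of the genotypes overlapped. Chek1 was 48.8 to 60.3 times as high as Chek2 in WT and 37.6 to 58.1 times in KO. Xrcc5 was 2.34 to 2.41 times as high as its Ku partner Xrcc6 in WT and 2.24 to 2.5 times in KO, and 38.9 to 54.9 times as high as Prkdc over all 6 libraries. Brca1 exceeded Bard1, its binding partner, by 5.18 to 8.38 times, and Rad50 exceeded Mre11a by 3.24 to 4.32 times and Nbn by 2.02 to 2.54 times, although the 3 proteins act in a common complex at breaks. Parp1 and Parp2, which both make poly(ADP-ribose) at breaks, stayed close, at 0.936 to 1.19 times. The ratio of Rad51d to Rad51c, which acts in the same complex, was 1.54 to 2.05 in WT and 2.87 to 3.33 in KO, and that of Rad51d to Xrcc2 was 2.04 to 2.6 and 4.94 to 6.04. These ratios did not overlap between genotypes, and the same held for Rad51c over Xrcc3, Fanci over Fancd2 and Lig4 over Xrcc4. The step was narrow for Rad51c over Xrcc3, at 0.368 to 0.413 in WT and 0.435 to 0.522 in KO, and for Fanci over Fancd2, at 1.72 to 2.07 and 1.57 to 1.63. The ratios were not tested, and no share over other pairs of genes was taken to set these counts against. Rad51d, Xrcc2 and Lig4 also had groups that did not overlap by themselves, as did 25.8% of all tested genes.

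A feature of the promoters that did not enter the choice of the genes was an E2F-type motif, the letters TTTCCCGC on either strand. It was carried by members of 4 of the 5 classes, and stretches that hold it are shown. CCAAT, another of the motifs searched, was carried by members of all 5 classes and is not shown. No rule set in advance chose which motif to show. RefSeq promoter windows (GRCm38.p6, 300 bases, of which 250 lie before and 50 after the annotated start) were found for 39 members, 43 windows in all, and some windows of 1 gene overlap. The motif lay in 7 of the 43 windows (16.3%) and in 351 of 32851 windows in the whole table (1.07%). The stretches are printed 5′ to 3′ on the strand of the gene, and the capitals mark the motif, as TTTCCCGC or as its reverse complement GCGGGAAA.
Chek2, sensors and checkpoint, chr5:110839805-110839864, plus strand: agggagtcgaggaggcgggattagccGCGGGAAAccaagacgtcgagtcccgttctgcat
Mdc1, sensors and checkpoint, chr17:35841456-35841497, plus strand: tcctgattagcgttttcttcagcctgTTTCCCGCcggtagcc
Brca2, homologous recombination, chr5:150522427-150522486, plus strand: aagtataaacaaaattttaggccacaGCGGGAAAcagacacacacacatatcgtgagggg
Bard1, homologous recombination, chr1:71103148-71103207, minus strand: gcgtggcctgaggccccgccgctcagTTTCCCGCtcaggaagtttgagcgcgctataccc
Rad51c, homologous recombination, chr11:87404952-87404985, minus strand: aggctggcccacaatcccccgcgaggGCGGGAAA
Xrcc6, end joining, chr15:82016297-82016356, plus strand: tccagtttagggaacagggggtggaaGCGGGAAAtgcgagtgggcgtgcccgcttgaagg
In the promoter of Msh6 the motif began 15 bases after the start, and in the stretches above it began between 5 bases before the start (Rad51c) and 209 bases before it (Bard1). None of these 7 genes passed the test of the genotypes, and of all tested genes only 2.74% did. Of the other motifs searched on both strands, CCAAT was present in 55.8% of member windows and 37.4% of all windows, CCGGAAGT in 9.3% and 3.89%, and the palindromic NRF1-type motif in 2.33% and 0.971%. TTTGGCGC, another E2F-type motif, was in none of the 43 member windows and in 0.514% of all windows. The median GC content was 60% in member windows and 52.7% in all windows, and its part in these shares was not tested. A match of letters is not a binding site. Xrcc2, Xpc, Rad9a, Prkdc, Rad50, Nbn, Fancd2 and Rad51d have no window in this table.

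In the sensor and checkpoint class none of the 13 tested genes passed the test (lowest adjusted p = 0.48, limma). None had KO and WT values that did not overlap, and all 13 intervals lay within 1.5-fold. Over all tested genes, 2.74% were called and 25.8% had groups that did not overlap. The changes ran from -0.12 to 0.11 on the log2 scale, with 5 positive, 8 negative and a median of -0.055. Chek1 was 127, 125 and 124 RPKM in WT replicates 1, 2 and 3 and 125, 122 and 134 RPKM in KO replicates 1, 2 and 3. The KO libraries lay on both sides of the WT libraries, and the change of 0.02 ± 0.06 (SE) had a 95% interval of -0.12 to 0.16. These values rest on 20336 to 26992 reads per library.

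Nbn, which encodes NBS1, the subunit that binds ATM, was 15.1, 13.2 and 14.7 RPKM in WT and 12.2, 14 and 13.1 RPKM in KO. Rad17, which loads the checkpoint clamp onto DNA, was 8.70, 9.24 and 8.23 RPKM in WT and 7.73, 8.78 and 7.79 RPKM in KO. Topbp1, an activator of ATR, was 13.9, 13.8 and 12.5 RPKM in WT and 11.3, 13.5 and 12.8 RPKM in KO. In each of these 3 genes KO replicate 1 was the lowest library and the groups overlapped, with log2 changes of -0.12 ± 0.09, -0.10 ± 0.09 and -0.09 ± 0.09 (SE; limma adjusted p = 0.48, 0.58 and 0.62).

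The other sensors are given by their means. Rad50, a subunit of the break-binding complex with Mre11a and Nbn, had 30.5 ± 1.86 RPKM (WT) and 30.4 ± 0.595 RPKM (KO), and Mre11a, its nuclease, at 7.82 ± 0.276 and 8.55 ± 1.21 RPKM. Trp53bp1, a chromatin reader that favours end joining, stood at 29.9 ± 0.707 and 28.9 ± 3.87 RPKM, and Mdc1, a scaffold on phosphorylated histone H2AX, at 2.38 ± 0.257 and 2.49 ± 0.127 RPKM. The clamp subunits Hus1 and Rad9a stood at 18.2 ± 1.59 and 5.02 ± 0.848 RPKM in WT and at 17.6 ± 4.40 and 4.56 ± 0.871 RPKM in KO. Hus1 had the widest spread of the class, with a within-group SD of 0.244 on the log2 scale, and its KO libraries stood at 15, 15.1 and 22.7 RPKM. Trp53, the p53 gene, was 10.8, 10.5 and 9.77 RPKM in WT and 10.8, 11.2 and 10.7 RPKM in KO, with a 95% interval of -0.10 to 0.24 on the log2 scale. Chek2, the kinase CHK2 that is known to relay damage to p53 and its relative p63 in mouse oocytes, was 2.6, 2.49 and 2.05 RPKM in WT and 2.46, 3.23 and 2.31 RPKM in KO. For both genes the groups overlapped.

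Of the kinases at the head of the signal, Atr was 1.77, 1.96 and 1.70 RPKM in WT and 1.39, 1.72 and 1.88 RPKM in KO, with overlapping groups. Atm did not reach the filter, at 0.760, 0.962 and 0.596 RPKM in WT and 0.685, 0.661 and 0.779 RPKM in KO, again overlapping. Atrip, the partner of ATR, was listed at 0, 0.00461 and 0 RPKM in WT and at 0.00955, 0.0232 and 0.0130 RPKM in KO. Its values correspond to 0 to 5 reads per library at the shortest length that gives whole reads, which may be too few by a common factor. In GENCODE M21, 16.0% of the exon bases of Atrip are shared with Trex1 on the same strand, and the gene model behind the deposited value has another length, so its level is uncertain. The class holds 6 genes of chromosome 9, which carries Khdc3: Atm, Atr, Topbp1, Atrip, Chek1 and Mre11a start 19.6, 22.8, 30.2, 36.0, 36.4 and 58.3 Mb from it. Trp53bp1 on chromosome 2 starts 0.867 Mb from Tmem87a, a called gene that fell from 14.9 to 0.377 RPKM (limma adjusted p = 0.00027).

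**Figure D2:**
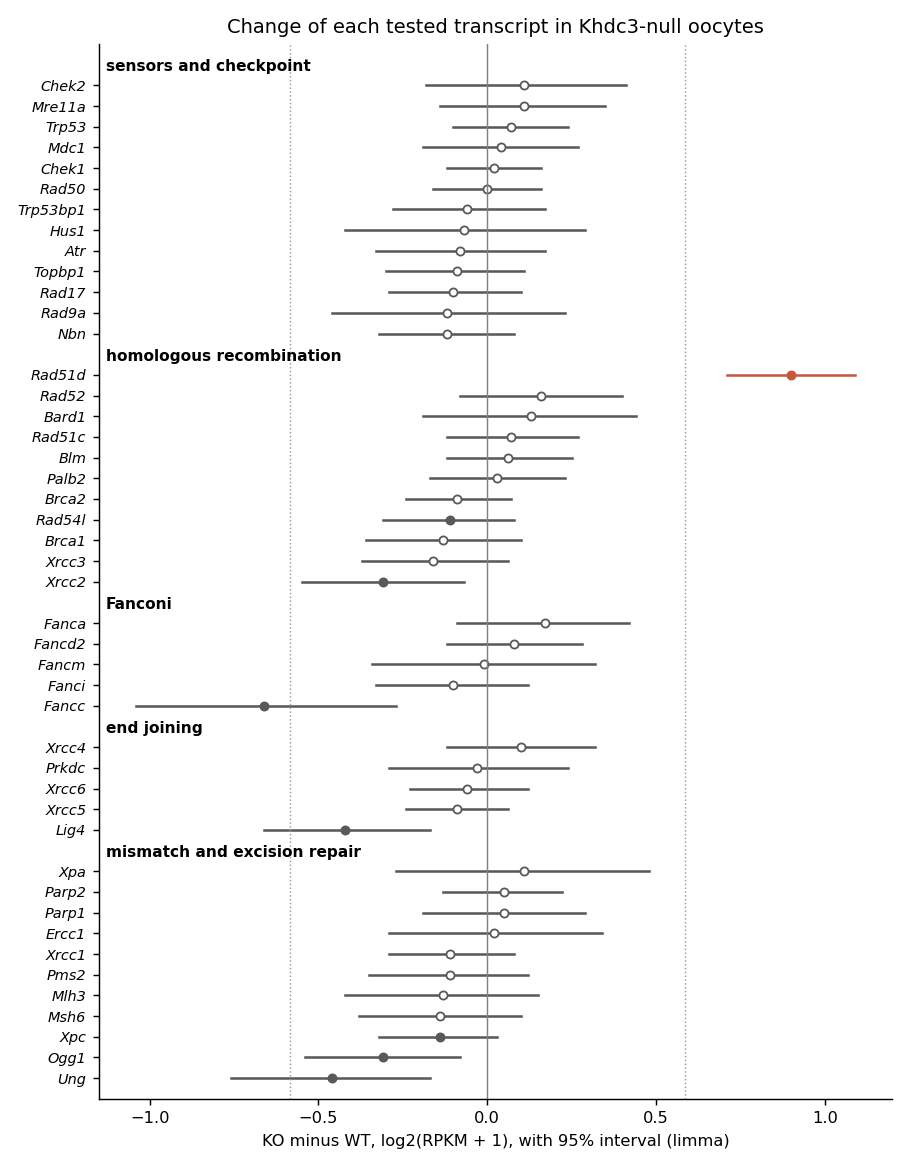
KO minus WT difference on the log2(RPKM + 1) scale for the 45 tested members, by class, with its 95% interval from limma (horizontal axis, log2 units). Filled points mark members whose KO and WT values do not overlap, colour marks the adjusted p under 0.05, and the dotted lines mark 1.5-fold; Rad51d at 0.90 is the 1 coloured point, and Fancc, Lig4 and Ung lie furthest to the left.

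Homologous recombination held the called gene. Rad51d (ENSMUSG00000018841.17, chromosome 11, 82876434 to 82890614, minus strand, GRCm38) encodes a protein that acts with RAD51C and XRCC2 in a complex of homologous recombination. WT replicates 1, 2 and 3 had 18.0, 15.3 and 15.8 RPKM, and KO replicates 1, 2 and 3 had 29.6, 32.2 and 32.1 RPKM. Every KO library lay above every WT library, and the gap between the groups was wider than the spread in either. The group means were 16.4 ± 1.46 and 31.3 ± 1.47 RPKM (SD, n = 3 each), and they rest on 2309 to 2372 reads in WT and 4313 to 5166 reads in KO libraries. The change was 0.90 ± 0.08 on the log2 scale (SE; 95% interval 0.71 to 1.09; limma adjusted p = 0.0013). By an exact permutation test (two-sided) p was 0.1, and a design of 3 libraries per group cannot go lower. The call was kept in all 16 alternative fits, with log2 changes of 0.85 to 0.96 and adjusted p of 0.00049 to 0.012. The granulosa and leukocyte marker sums given above were also higher in every KO library, and their part in this difference was not tested. Without KO replicate 1 the change was 0.93.

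No tested gene beside Rad51d was called. Of 11 annotated protein-coding genes that start within 200 kb of its start, 4 reached the filter and 0 passed (limma). Rffl, a ubiquitin ligase gene that starts 19.4 kb away on the same strand, was 23.7, 24.5 and 23.1 RPKM in WT and 18.7, 20.2 and 19.3 RPKM in KO, a change of -0.28 ± 0.07 (SE; limma adjusted p = 0.074). Its groups did not overlap and its sign was opposite to that of Rad51d. Lig3, a DNA ligase of base excision and mitochondrial repair that starts 110 kb away, had mean levels of 11.9 (WT) and 11.4 RPKM (KO), and Zfp830 and Nle1 had changes of -0.03 and -0.02. Fndc8, which starts 1.51 kb away on the opposite strand, was listed at 0 in all WT libraries and reached 0.0457 RPKM in KO. Slfn9 and Slfn8 were below the filter with KO libraries above WT libraries, at 0.158 to 0.237 RPKM in WT and 0.36 to 0.527 RPKM in KO for Slfn9, and at most 0.243 RPKM for Slfn8. No exon base of Rad51d is shared with another gene in GENCODE M21.

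Rad51c, Xrcc2 and Xrcc3, the genes closest to Rad51d in role, were not called. Xrcc2, its direct partner, was 6.94, 7.49 and 7.11 RPKM in WT and 4.90, 6.51 and 5.48 RPKM in KO. All KO libraries lay below the WT libraries, but the change of -0.31 ± 0.11 did not pass (SE; limma adjusted p = 0.17; 95% interval -0.55 to -0.07). Xrcc3, which forms a separate complex with RAD51C and was the most abundant member of the class, was 21.9, 26.4 and 24.8 RPKM in WT and 19.7, 22.2 and 23.2 RPKM in KO, with overlapping groups (-0.16 ± 0.09; adjusted p = 0.39). Rad51c, common to both complexes, was 8.79, 9.72 and 10.3 RPKM in WT and 10.3, 9.67 and 10.4 RPKM in KO, with a 95% interval of -0.12 to 0.27.

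The mediators and helicases of the class were not called either. Brca2, a mediator of recombination, had 17.0 ± 0.678 RPKM (WT) and 16.0 ± 0.404 RPKM (KO), its partner Palb2 at 10.2 ± 0.736 and 10.4 ± 0.718, Brca1 at 14.4 ± 0.676 and 13.1 ± 1.69, and Bard1 at 1.89 ± 0.188 and 2.19 ± 0.537 RPKM. Rad52, an annealing factor, stood at 6.24 ± 0.271 and 7.14 ± 0.966 RPKM, and the helicase gene Blm at 6.80 ± 0.196 and 7.16 ± 0.470 RPKM. Rad54l, a motor protein of recombination, was 7.33, 7.07 and 8.14 RPKM in WT and 6.62, 7.02 and 6.94 RPKM in KO. Its groups did not overlap by a narrow margin, and the change of -0.11 ± 0.08 did not pass (limma adjusted p = 0.50). Of its exon bases, 15.4% lie opposite those of Lrrc41. In the class as a whole 6 of 11 changes were positive and the median was 0.027, against 0.014 for all tested genes.

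Of the 5 Fanconi genes, Fancc was the 1 (20%) whose groups did not overlap, and none was called. Among all tested genes 25.8% had groups that did not overlap (12.2% with KO lower), and 2.74% were called. Fancc (chromosome 13, 63285043 to 63497278) encodes a subunit of the core complex that ubiquitinates FANCD2 and FANCI at crosslinks. Its level was 13.7, 17.4 and 18.6 RPKM in WT and 9.28, 13.0 and 8.38 RPKM in KO. The highest KO library lay just under the lowest WT library, and both groups were spread widely. The change was -0.66 ± 0.17 (SE; 95% interval -1.04 to -0.27; limma adjusted p = 0.084). It passed with voom on recovered reads (adjusted p = 0.048), where 3.49% of genes were called, and without KO replicate 2 (0.044), and its adjusted p ran from 0.044 to 0.25 over the 16 alternatives. In GENCODE M21, 18.6% of its exon bases lie opposite those of other genes, and no source used here states a strand setting for the counting.

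Fanci was 13.0, 11 and 11.3 RPKM in WT and 9.88, 10.8 and 11.9 RPKM in KO, and its partner Fancd2 stood at 6.39 ± 0.159 and 6.82 ± 0.529 RPKM. Fanca, another core subunit, was 1.80, 2.06 and 1.69 RPKM in WT and 1.89, 2.34 and 2.37 RPKM in KO, a change of 0.17 ± 0.11 (SE; adjusted p = 0.45, limma). Fancm, the translocase that brings the core complex to DNA, stood at 3.38 ± 0.651 and 3.35 ± 0.513 RPKM. In these 4 genes the groups overlapped. Of the exon bases of Fanci, 16.0% lie opposite those of Polg, and 10.5% of those of Fanca lie opposite Zfp276.

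Of the 5 end-joining genes, Lig4 was the 1 (20%) whose groups did not overlap, and none was called. The shares over all tested genes were 25.8% for groups that did not overlap (12.2% with KO lower) and 2.74% for calls. Lig4 (chromosome 8, 9969049 to 9977686) encodes the ligase that seals joined ends. It was 18.8, 18.2 and 16.2 RPKM in WT and 12.6, 15 and 11.6 RPKM in KO, and all KO libraries lay below the WT libraries. The change of -0.42 ± 0.11 missed the threshold (SE; 95% interval -0.66 to -0.17; limma adjusted p = 0.084, and 0.059 to 0.24 over the alternatives). Its scaffold partner Xrcc4 was 4.42, 3.98 and 4.76 RPKM in WT and 5.06, 4.45 and 4.84 RPKM in KO. The ratio of Lig4 to Xrcc4 was 3.41 to 4.57 in WT and 2.41 to 3.37 in KO, ranges that did not overlap. Xrcc5 was 53.9, 55.4 and 59.3 RPKM in WT and 52.4, 51.7 and 54 RPKM in KO, with overlapping groups and a 95% interval of -0.24 to 0.06. Xrcc6 stood at 23.6 ± 1.01 and 22.7 ± 1.54 RPKM, and Prkdc at 1.18 ± 0.192 and 1.14 ± 0.133 RPKM.

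Among mismatch and excision repair genes, 3 of 11 (27.3%) had KO values that were all below the WT values, beside 25.8% of all tested genes separated in either direction and 12.2% with KO lower, and none was called. Ung (chromosome 5, 114130386 to 114139323), the glycosylase that removes uracil from DNA, was 48.7, 35.2 and 50.6 RPKM in WT and 31.4, 32.7 and 31.4 RPKM in KO. The KO libraries were close together, and WT replicate 2 lay nearer to them than to the other WT libraries. The change was -0.46 ± 0.13 (SE; 95% interval -0.76 to -0.17; limma adjusted p = 0.11), and without WT replicate 2 it was -0.62 and passed (adjusted p = 0.011). Ogg1, the glycosylase for oxidised guanine, was 7.89, 8.33 and 8.82 RPKM in WT and 7.42, 6.43 and 5.87 RPKM in KO (-0.31 ± 0.10; adjusted p = 0.15). Xpc, which recognises bulky lesions, was 11, 11.2 and 11.4 RPKM in WT and 9.92, 10.7 and 9.60 RPKM in KO (-0.14 ± 0.08; adjusted p = 0.35). Both genes had every KO library below every WT library, by a small step in Xpc. Of the exon bases of Ogg1, 10.6% lie opposite those of Camk1.

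Msh6 was 65.4, 68.7 and 56.7 RPKM in WT and 50.3, 62.8 and 59.9 RPKM in KO, with overlapping groups (-0.14 ± 0.10, SE; limma adjusted p = 0.50). The MutL genes Pms2 and Mlh3 stood at 3.21 ± 0.288 and 1.30 ± 0.214 RPKM in WT and 2.89 ± 0.265 and 1.09 ± 0.196 RPKM in KO, and 5.9% of the exon bases of Pms2 are shared on the same strand, so its level is uncertain. Xpa, a scaffold of nucleotide excision repair, stood at 3.86 ± 0.648 and 4.27 ± 1.11 RPKM, and Ercc1, a subunit of its nuclease, at 5.05 ± 0.517 and 5.19 ± 1.04 RPKM. Parp1, which senses strand breaks, stood at 8.5 ± 0.605 and 8.87 ± 1.12 RPKM, Parp2 at 7.85 ± 0.0857 and 8.15 ± 0.346 RPKM, and their scaffold Xrcc1 at 22.1 ± 1.76 and 20.4 ± 0.855 RPKM. Parp2 was the steadiest member, with a within-group SD of 0.040 on the log2 scale, against a median of 0.109 over the 45 members and 0.126 over all tested genes.

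**Figure D3:**
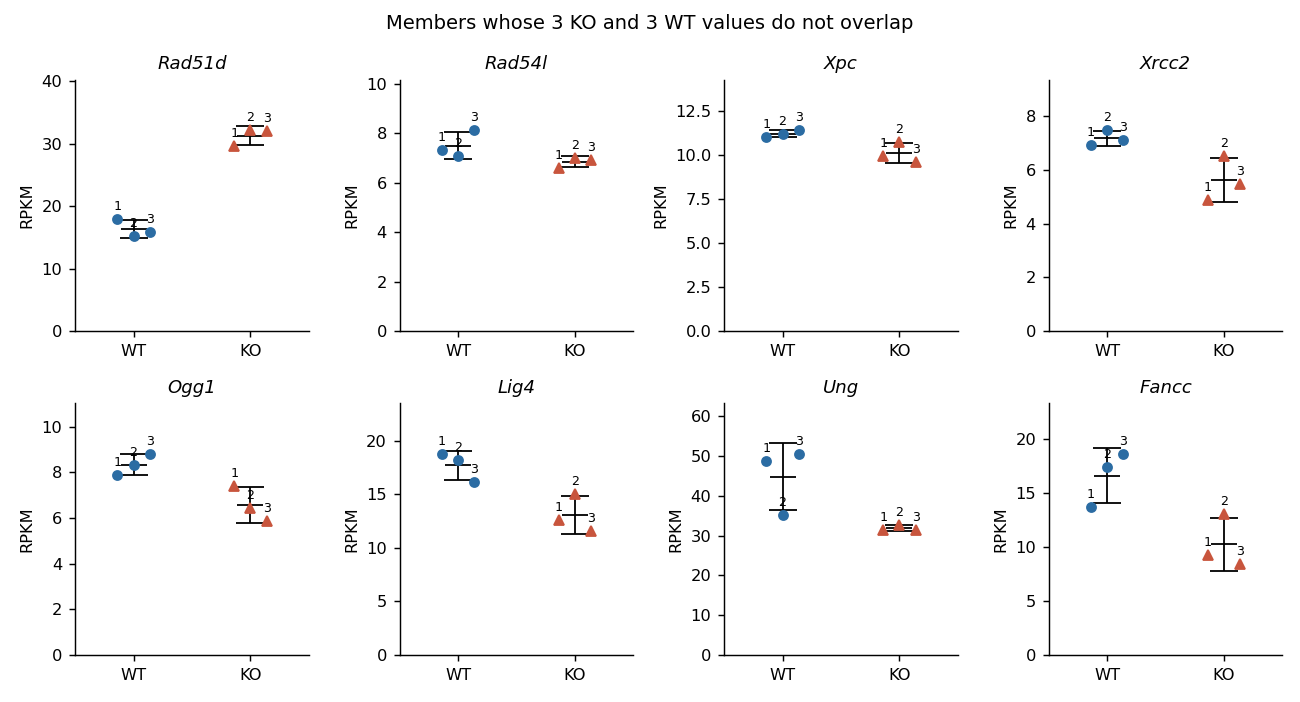
RPKM of the 8 members whose 3 KO values (triangles) all lie on 1 side of their 3 WT values (circles), each on its own axis from 0, with replicate numbers beside the points and the mean and SD in black. Rad51d is the 1 gene with KO above WT, and only Rad51d passed the test.

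In all, 8 of the 45 tested members (17.8%) had groups that did not overlap, 1 with KO higher and 7 with KO lower, beside 25.8% among all tested genes (13.5% with KO higher and 12.2% with KO lower). Taken over both directions, the members' share was thus not above that of the table. With Rad51d left out, 7 of 44 tested members (15.9%) had groups that did not overlap, all with KO lower, near the 12.2% of the table. With counts this small, neither direction was read as a difference between the members and the table. At an unadjusted p under 0.05 there were 6 members (13.3%) and 19% of all tested genes. Negative changes made up 27 of the 45 (60%) and 46.9% of all tested genes, with medians of -0.058 and 0.014. KO replicate 1 was the lowest of the 6 libraries in 20 of the 45 members (44.4%), and in 20.9% of all tested genes. Without it the members' median was -0.013 and that of all tested genes 0.007. 

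None of the further genes of these pathways was called. Of 132 symbols listed for further repair and signalling genes, 125 were in the table and 116 were tested. Clspn was also listed as Claspin and Fam175a as Abraxas1, and of these symbols only Clspn and Fam175a were tested. Of the 116 tested genes 0 were called by limma, where 2.74% of all tested genes were. At an unadjusted p under 0.05 there were 16 (13.8%), and 1 was called with voom. Changes were positive in 61 and negative in 55, with a median of 0.008, and 106 intervals lay within 1.5-fold. The groups did not overlap in 22 of the 116 (19.0%), 10 with KO higher and 12 with KO lower, beside 25.8% of all tested genes. The following 4 genes were chosen after their values were seen and by no fixed rule. Others had a similar adjusted p, such as Wee1 (-0.30 ± 0.08, SE; limma adjusted p = 0.093). Rad1, the subunit of the checkpoint clamp beside Hus1 and Rad9a, was 4.49, 4.81 and 5.08 RPKM in WT and 3.26, 3.47 and 3.78 RPKM in KO (-0.36 ± 0.09, SE; limma adjusted p = 0.084), and it was the gene called with voom (0.045). Nhej1, the end-joining factor XLF, was 63.0, 43.6 and 47.4 RPKM in WT and 40.4, 29.7 and 29.0 RPKM in KO (-0.62 ± 0.16; adjusted p = 0.097), and it was called with the replicate block (0.015) and with library weights (0.034). Tipin, a replication fork protein, was 43.3, 40.2 and 41.9 RPKM in WT and 54.9, 48.3 and 63.1 RPKM in KO (0.39 ± 0.10; adjusted p = 0.083). Rad51ap1, a recombination cofactor, was 4.20, 4.41 and 4.10 RPKM in WT and 2.95, 3.26 and 2.93 RPKM in KO (-0.37 ± 0.09; adjusted p = 0.074, and 0.045 with library weights). In each of these 4 genes the groups did not overlap, and none passed in the limma fit reported, on log2(RPKM + 1) with genotype alone.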

How the data were processed

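RNA libraries of dissected oocytes (3 WT, 3 KO) were grouped by their titles. The authors deposited 1 table of RPKM values, and the tools named (per the submitters' processing notes) are featureCounts 1.6.2, STAR 2.6.0c and FastQC 0.11.7, with the build GRCm38.p6. Per the labels' protocols, a directional kit was used, which keeps strand, but no source used here states the strand setting of the counting. Symbols linked all 47 members to GENCODE M21 (GRCm38). With exon-union lengths, 92.4% of 19867 matched genes with values gave whole reads in all libraries (tolerance 0.01), 44 of the members among them. For other tested genes the smallest length giving whole reads was used.

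Genes that reached an RPKM of 1 in 3 or more of the 6 libraries entered a limma fit (3.58.1, R 4.3.3) on log2(RPKM + 1), with a trended prior and genotype alone in the model. Adjustment was by Benjamini-Hochberg over all 12272 tested genes, and a gene was called under 0.05. Summaries used Python 3.11.15, pandas 2.3.3 and matplotlib 3.10.9.

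The members, classes, further genes and markers were chosen with earlier results of these data known. Genes given in every library were each called member, the 3 members of each class with the smallest p and its most abundant member; others were added where the text turned on them. Members whose groups do not overlap, Trp53, Chek2, Atr, Rad51c and Hus1 were so added after their values were seen. No pair of libraries of a genotype agreed within sampling noise (chi-square over its degrees of freedom at least 16).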

Additional observations from a re-analysis of the deposited data

How the results depend on the processing

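Rad51d kept its direction and call in all 16 alternatives. The count of called members was 1 in the fit reported and 2 with voom on recovered reads (Fancc added), and it ran from 1 to 2 when each library was left out in turn. Without 1 library a group has 2 samples, and the fit pools its spread over groups. The count of all called genes, 336, was 94 with no filter on low values, 222 with a filter of RPKM 5 and 662 with library weights, and ran from 151 to 289 when each library was left out. The count of further repair genes, 0, was 1 with the replicate block (Nhej1), 3 with library weights (Nhej1, Fancb and Rad51ap1) and 1 with voom (Rad1), and ran from 0 to 1 without each library (Fancb without KO replicate 1). Members whose groups do not overlap numbered 10 to 15 when each library was left out, where 32.3% to 40.2% of all tested genes were so separated. The change of Chek1, 0.02, was -0.02 without KO replicate 3 and ran from -0.02 to 0.05 over the fits that leave out 1 library. Of 270 results for 17 named members, 266 kept direction and side of the threshold, 3 passed only under an alternative (Fancc under 2, Ung under 1) and 1 changed sign. The causes of these shifts were not tested, except that leaving out a library leaves fewer samples.

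The median change of the members stayed negative, at -0.088 to -0.013, and moved by less than the spread between libraries (0.049). The deviations of same-numbered libraries correlated at -0.0161, 0.213 and -0.0341 for numbers 1, 2 and 3, over 0.1 for number 2 alone, and 2 of 6 libraries were closest to their own number, so the numbers were not taken to pair the samples. With the replicate block, 320 genes and 1 member were called. The number of members with an interval within 1.5-fold was 36 with a pseudocount of 0.1 and with voom, and 30 of 34 with the filter of RPKM 5. Read number may limit members with few reads, such as Chek2 at 249 to 392 reads per library, and this was not tested.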
